A study of Mus musculus with 4 samples.

Results

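Genes of Wnt feedback and Wnt-responsive transcription were followed over the cell types of the mouse duodenal crypt, in a WT genotype and in an APC-KO genotype that carries floxed Apc. They were chosen by name, Axin2, Nkd1, Notum, Sp5, Rnf43, Znrf3, Tcf7, Lef1, Wif1 and Apcdd1, and all 10 were found by symbol among the 31053 genes of the files. The cells were TOM+ cells of duodenal crypts, that is cells in which Cre recombinase had switched on a red fluorescent reporter, sorted alive and sequenced with droplet-based 3′ single-cell RNA libraries. The WT group carried Atoh1CreER-T2 and R26RTom. The APC-KO group carried the same reporter and Apcfl/fl, with a driver that its labels name Atoh1Cre and the series description names Atoh1CreER-T2. All mice had received tamoxifen in 2 doses of 1 mg/mL, 24 h apart, and crypts were taken 12 h after the second. Atoh1 is a gene of the secretory lineage, so the driver as well as the sort set which cells were seen. The labels give 2 libraries per genotype and no age, sex, animal or batch for any of them, so every p-value below measures only the spread between these libraries.

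In canonical Wnt signalling, a Wnt ligand at Frizzled and LRP receptors stops the destruction complex, which is built on Axin and Apc, from degrading beta-catenin. Beta-catenin then enters the nucleus and drives transcription with the TCF and LEF factors. Several of the genes it switches on restrain the same pathway, which makes them feedback regulators, and in the intestinal crypt, where Paneth and stromal cells supply Wnt ligands, stem cells are known for high levels of such genes.

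The upstream sequences of 2 target genes are shown because Axin2 and Sp5 are textbook direct targets. They are the 250 bases before the RefSeq start on GRCm38.p6, both on the plus strand, Axin2 at chr11:108920099-108920348 and Sp5 at chr2:70474673-70474922. Capitals mark the letters CTTTGAT or CTTTGAA or CTTTGTT or CTTTGTA, forms of the TCF/LEF motif searched on either strand, and the 2 marked stretches do not overlap.
Axin2: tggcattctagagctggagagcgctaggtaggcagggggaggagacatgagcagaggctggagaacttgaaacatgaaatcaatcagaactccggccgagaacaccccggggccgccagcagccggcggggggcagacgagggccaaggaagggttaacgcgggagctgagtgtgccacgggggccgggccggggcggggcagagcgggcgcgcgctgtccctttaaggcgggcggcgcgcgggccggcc
Sp5: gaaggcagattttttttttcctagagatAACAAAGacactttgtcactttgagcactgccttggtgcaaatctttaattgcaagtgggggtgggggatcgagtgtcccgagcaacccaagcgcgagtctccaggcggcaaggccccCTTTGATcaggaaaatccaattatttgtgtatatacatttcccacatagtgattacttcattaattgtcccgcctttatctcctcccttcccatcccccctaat
The Sp5 stretch held 2 matches, AACAAAG, which reads CTTTGTT on the other strand, beginning 222 bases before the start, and CTTTGAT nearer to it, and the Axin2 stretch held 0. The promoter table covered 7 of the 10 genes with 12 promoters, of which 2 held a match, 1 of Sp5 and 1 of Lef1. Of all 32851 promoters of the table, 4874 (14.8%) held a match.

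Library values are always given in the order WT replicate 1, WT replicate 2, APC-KO replicate 1, APC-KO replicate 2. Where both libraries of 1 genotype are said to lie above both of the other, this describes their order only. The share of all genes with such an order was not computed, so it is not read as a difference between genotypes. The deposited cell tables kept 4814, 3821, 356 and 6243 cells. Their median depth was 4841.5, 5354, 8370 and 3973 UMIs per cell, a UMI being a tag that marks 1 captured RNA molecule. APC-KO replicate 1 stood apart, with only 5.15% of its UMIs in kept cells against 37.6% to 50.3% in the others. It held 13 ISC cells, 8 TUFT cells and 5 SEC-PRO cells. Of the kept cells, 20 barcodes occurred in more than 1 library. A level is given in CPM, the UMIs of a gene divided by all UMIs of the summed cells and multiplied by 1e+06. Apc itself was read at 87.2, 77.9, 88.1 and 88.1 CPM, with no lower value in APC-KO. The labels do not say which part of Apc is floxed, and 3′ tags outside a deleted part do not check the deletion.

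Each kept cell carries 1 of 12 deposited type names, printed here as deposited. Markers of the stem cell list were highest in ISC for Lgr5, Olfm4, Slc12a2 and Gkn3, but in TUFT for Ascl2 and Smoc2. All 4 tuft markers (Dclk1, Trpm5, Avil, Pou2f3) were highest in TUFT, all 5 markers of serotonin-producing endocrine cells in EC, and all 6 peptide hormone genes in NON-EC. Other lists were mixed by the WT mean. Of the secretory progenitor markers only Dll1 was highest in SEC-PRO, with Atoh1 highest in PANETH-PRE, Dll4 in EC and Spdef in GP. Goblet markers were highest in GOBLET except Agr2 (GOBLET-PRE), and Paneth markers in PANETH except Mmp7 (PANETH-PRE). Neurod1, of the endocrine precursor list, and Sis, of the enterocyte list, were highest in EC. The type names had been made from the same cells and genes, so differences between types are described and not tested. These are 3′ tag counts with no length scale, so levels are compared between cells for 1 gene at a time.

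Axin2, the scaffold of the destruction complex that is itself switched on by beta-catenin (chromosome 11, 108920349 to 108950783, plus strand), was highest in ISC in both WT libraries and in APC-KO replicate 2. Its ISC level was 126.6, 121.3, 26.4 and 173.8 CPM, from 434, 171, 2 and 1040 UMIs. APC-KO replicate 2 was the highest and APC-KO replicate 1, with its 2 UMIs and an exact Poisson interval of 3.20 to 95.3 CPM, the lowest, so the WT libraries lay between those of APC-KO. In APC-KO replicate 1, NON-EC was the highest type, at 71.4 CPM from 5 UMIs. In WT, ISC (124 ± 3.77, SD, n = 2) stood above NON-EC (76.2 ± 3.24), and NON-EC above SEC-PRO (50.6 ± 9.31). At each of these steps neither the values of the libraries nor the counting intervals of the pooled UMIs overlapped. The next types, from PANETH-PRE (38.0 ± 7.78) over EC, EEC-PRE, TUFT, GP and ENTERO-PRO to PANETH (9.43 ± 3.75), were not separate from their neighbours in the order. GOBLET-PRE (4.79 ± 1.10) was below PANETH, and GOBLET (3.19 ± 4.50) could not be told from GOBLET-PRE. ISC made up 9.30% of WT cells and held 40.5% of the WT Axin2 UMIs.

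**Figure D1:**
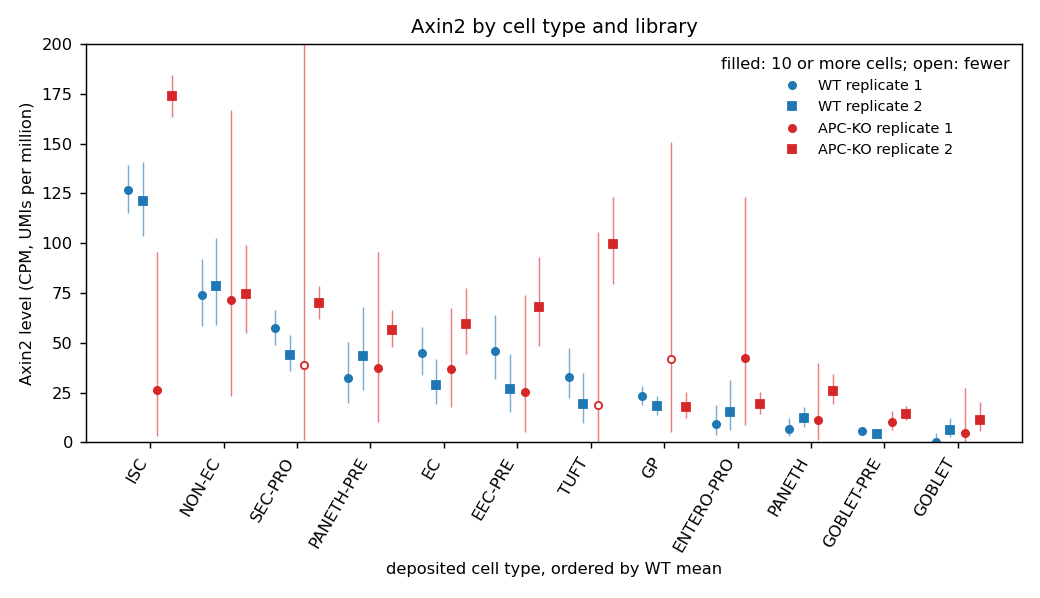
Axin2 level in CPM (y axis, linear) for each deposited cell type (x axis, in the order of the WT mean). Each point is 1 library, bars are exact 95% Poisson intervals that cover counting error only, and open points rest on fewer than 10 cells. The ISC points of WT lie at 121.3 and 126.6, and the GOBLET-PRE points of APC-KO at 10.1 and 14.4, both above the WT points at 5.56 and 4.01.

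At the level of single cells, an Axin2 UMI was found in 45.4%, 45.2%, 7.69% and 50.7% of ISC cells. After each cell was thinned to 2000 UMIs, these shares were 21.4%, 21.7%, 10.0% and 28.7%. Thinning left out 20, 7, 3 and 33 ISC cells that were shallower. In GOBLET cells, the type with the lowest level, the thinned shares were 0%, 0.741%, 0% and 1.57%, at median depths of 4904, 5252, 6906 and 3624 UMIs against 6249, 6579.5, 6309 and 4515 in ISC. Barcodes with 1 to 50 UMIs, taken as free RNA, held Axin2 at 44.3, 43.0, 21.4 and 74.0 CPM, above the GOBLET-PRE level of the same libraries.

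Sp5, a transcription factor of the Sp family that represses Wnt targets (chromosome 2, 70474923 to 70477729, plus strand), was highest in ISC in WT only. It was found there at 13.4, 22.0, 13.2 and 15.0 CPM, from 46, 31, 1 and 90 UMIs. The groups overlapped. In APC-KO replicate 2 the highest type was EC (22.8 CPM, 20 UMIs). In APC-KO replicate 1 NON-EC (14.3 CPM) and the 8 TUFT cells (18.9 CPM) lay above ISC, each with 1 UMI. In WT the second type was ENTERO-PRO (7.64 ± 1.49, SD, n = 2), and the counting intervals of neighbouring types overlapped at each step of the Sp5 order.

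Nkd1, an inducible inhibitor that binds Dishevelled downstream of the receptors (chromosome 8, 88521354 to 88594884, plus strand), had another order. TUFT cells had the highest level, 61.4, 58.3, 189.3 and 102.0 CPM from 54, 33, 10 and 88 UMIs. Both APC-KO values lay above both WT values, although the third library had 8 TUFT cells, too few for a comparison of genotypes by the minimum of 10 cells. The pooled APC-KO to WT ratio in TUFT was 1.78 (95% interval 1.32 to 2.40, counting error only). In WT, PANETH came next and was separate from TUFT. The PANETH level was 16.9, 22.7, 11.1 and 20.6 CPM. In ISC the level was 1.46, 2.84, 0 and 2.84 CPM. No Nkd1 UMI was found in GOBLET cells of any library.

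TUFT cells were 4.10% of WT cells and carried 41.2% of the WT Nkd1 UMIs, and PANETH cells carried a further 34.1%. In APC-KO the TUFT share was 48.0%. Thinned to 2000 UMIs, 14.1%, 12.6%, 12.5% and 14.2% of TUFT cells had an Nkd1 UMI, against 0.180%, 0.452%, 0% and 0.248% of ISC cells. The median depth of TUFT cells was 3879, 4643, 6934.5 and 2676 UMIs, that of ISC cells is given above. Free RNA held Nkd1 at 0.903, 1.48, 1.60 and 9.16 CPM.

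Rnf43 and Znrf3 are membrane ubiquitin ligases that remove Frizzled receptors and are themselves held in check by R-spondin through the Lgr receptors. Rnf43 (chromosome 11, 87662722 to 87735539, plus strand) was highest in ISC, at 56.9, 51.8, 66.0 and 51.1 CPM from 195, 73, 5 and 306 UMIs. ISC was the highest type in all 4 libraries, and the APC-KO values lay on both sides of the WT values. PANETH-PRE (35.6 ± 11.6 CPM in WT, SD, n = 2) and TUFT (35.2 ± 4.87) followed without being separate from their neighbour above. SEC-PRO (21.7 ± 0.461) was separate from TUFT, and no later step was. Free RNA held Rnf43 at 19.9, 22.3, 10.7 and 35.9 CPM, within the range of the types other than ISC.

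Znrf3 (chromosome 11, 5276324 to 5444847, minus strand) had no single high type in WT. Its highest WT mean was in NON-EC (18.5 ± 0.632 CPM, SD, n = 2), and 9 types from NON-EC to GP (9.22 ± 1.27) followed each other without a separate step. GOBLET-PRE (5.03 ± 2.01) was the next lower and was separate. In ISC Znrf3 was at 14.6, 14.9, 0 and 10.2 CPM, both WT libraries above both of APC-KO. The 0 UMIs of APC-KO replicate 1 allow up to 39.6 CPM by a limit of 3 counts. Free RNA held Znrf3 at 10.8, 9.64, 8.01 and 8.40 CPM, and its part in the levels by type was not tested.

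Among the nuclear factors, Tcf7 (chromosome 11, 52252371 to 52283014, minus strand), which encodes TCF1, was highest in ISC in both WT libraries and in APC-KO replicate 2, at 9.34, 14.9, 0 and 8.02 CPM from 32, 21, 0 and 48 UMIs. The WT values were above both APC-KO values, of which the first, 0 UMIs, allows up to 39.6 CPM by a limit of 3 counts. By the mean of the APC-KO libraries, ISC (4.01 ± 5.67 CPM, SD, n = 2) lay below PANETH-PRE (7.24 ± 2.96) and EC (7.08 ± 0.345). The TUFT level in WT was 6.38 ± 0.974 CPM (SD, n = 2) from 9 UMIs and was not separate from ISC. Lef1 (chromosome 3, 131110471 to 131224356, plus strand) was scarce, with 19 UMIs in WT and 29 in APC-KO over all kept cells. They were scattered over 9 types in WT, and none was found in GOBLET-PRE, GP or ENTERO-PRO cells of either genotype. T cells also use these factors. A UMI of a T cell marker was found in 116 of the 15234 kept cells, in 0 of the 47 cells with a Lef1 UMI and in 3 of the 200 with a Tcf7 UMI.

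The secreted and membrane inhibitors were near the limit of detection. Wif1, which binds Wnt ligands (chromosome 10, 121033960 to 121100650, plus strand), had 20 UMIs in each genotype, and of these EC cells held 10 in WT and 15 in APC-KO. The EC level was 3.99, 5.34, 11.0 and 13.7 CPM from 5, 5, 3 and 12 UMIs, with both APC-KO libraries above both of WT. The pooled ratio in EC was 2.85 (95% interval 1.20 to 7.10, counting error only). Wif1 was below the count filter of the EC comparison described below. Without that filter its log2 value, APC-KO minus WT, was 1.48 and did not pass (edgeR adjusted p = 0.516). PANETH cells held 6 Wif1 UMIs in WT and 0 in APC-KO, and ISC cells held 0 in either genotype.

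Notum, an enzyme that removes the lipid from Wnt ligands (chromosome 11, 120653788 to 120661175, minus strand), had 9 UMIs in WT and 1 in APC-KO. In WT, 3 of them were in EEC-PRE, 3 in PANETH, 2 in EC and 1 in NON-EC. Apcdd1, a membrane inhibitor (chromosome 18, 62922231 to 62961179, plus strand), had 2 UMIs in each genotype. No level by cell type is read from counts of this size. Over the 6 genes with at least 50 UMIs, the type with the highest WT mean was ISC for Axin2, Sp5, Rnf43 and Tcf7, TUFT for Nkd1 and NON-EC for Znrf3. For Znrf3 it was TUFT (18.5 CPM) after thinning.

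**Figure D2:**
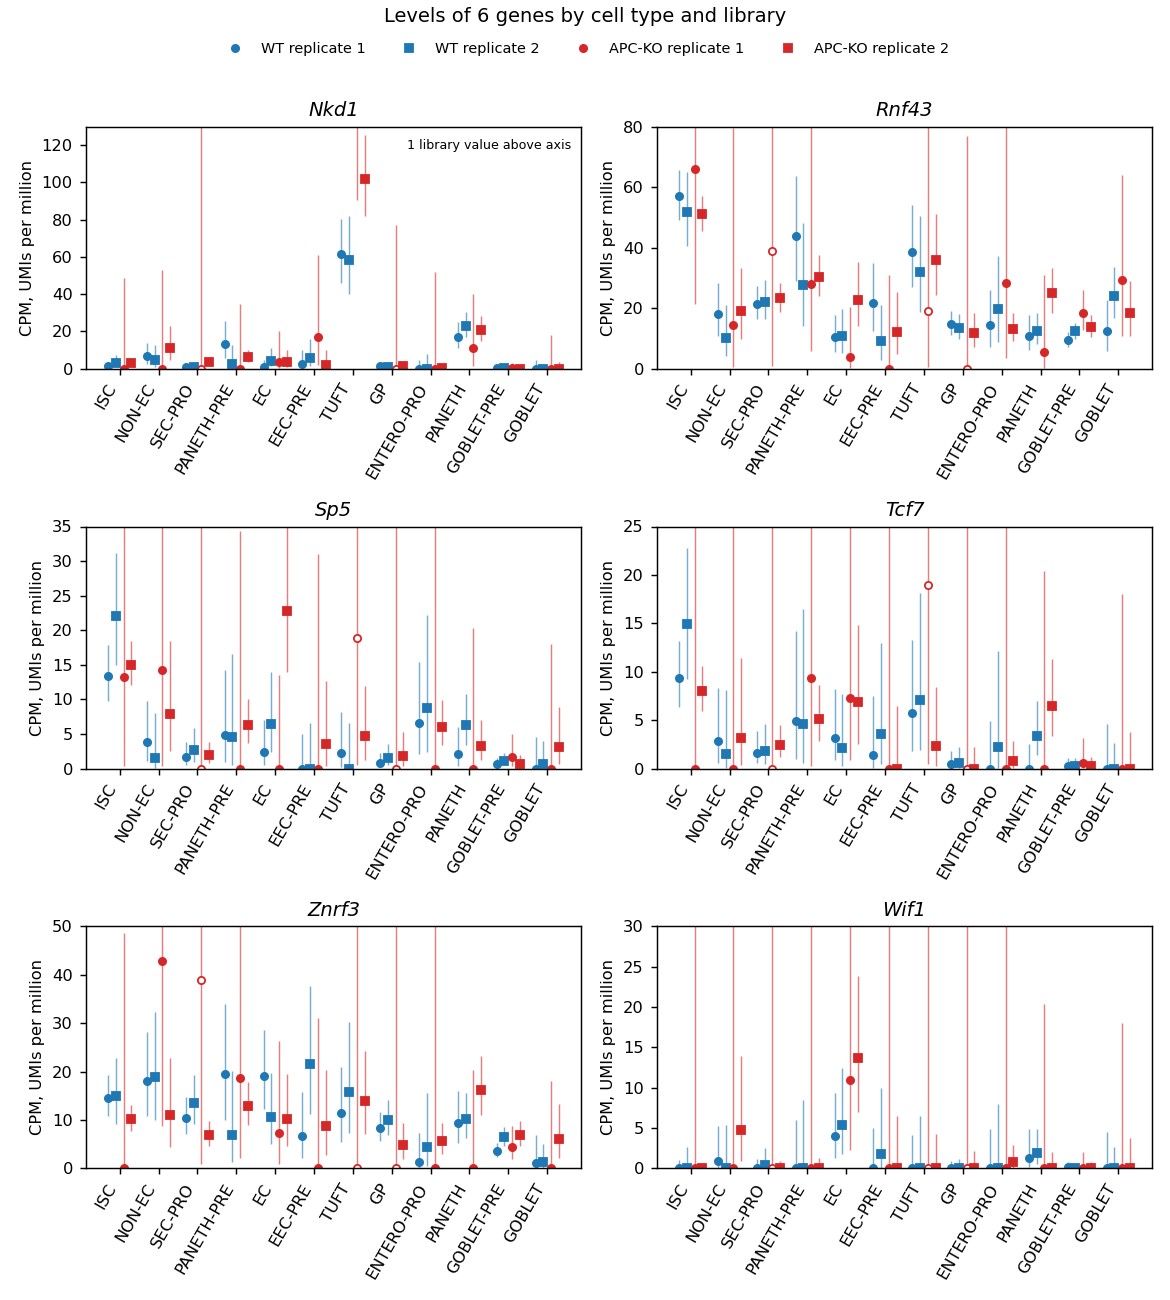
Levels of Nkd1, Rnf43, Sp5, Tcf7, Znrf3 and Wif1 in CPM (y axes, linear, each with its own range) by deposited cell type, in the same order as for Axin2. Points are libraries, open where they rest on fewer than 10 cells, and bars are exact 95% Poisson intervals, which run past the axis for some sums. Nkd1 peaks in TUFT, where the value of 189.3 lies above the axis, while Rnf43 peaks in ISC.

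Genotypes were compared with edgeR on UMI sums of the 4 libraries, over all cells (ALL) and in 4 populations with at least 10 cells in each library: ISC, GOBLET-PRE, EC, and PANETH with PANETH-PRE (PANETH-LINEAGE). Fold changes are log2, APC-KO minus WT, with Benjamini-Hochberg adjustment over all genes tested in a fit and a threshold of 0.05. In a sum over cells, fewer cells of a type and less RNA per cell cannot be told apart. None of the 10 genes passed in any of the 5 comparisons, in which 8, 5, 3, 1 and 5 of them passed the filter on low counts. At an unadjusted p under 0.05 there were 4 values, 2 in GOBLET-PRE and 2 in PANETH-LINEAGE, where 817 of 10272 and 1271 of 8599 genes had such a p. The DESeq2 Wald test called 0, but it gave no adjusted p to any of the 5 genes tested in ISC, the 5 in PANETH-LINEAGE or the 1 in EC, so it says nothing of them there. For all genes tested, edgeR called 0% in ALL (0 of 13345, with 495 at an unadjusted p under 0.05), 3.62% in ISC, 0.00974% in GOBLET-PRE, 0% in EC (0 of 8690, with 729 at an unadjusted p under 0.05) and 0.663% in PANETH-LINEAGE.

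Over all cells, Axin2 was at 39.3, 24.9, 17.3 and 69.9 CPM, with the WT libraries between those of APC-KO. The libraries had the same order in their share of ISC cells, which was 11.9%, 5.97%, 3.65% and 19.9%. The part of cell composition in the difference of Axin2 over all cells was not tested. The fold change was 0.55 (SE 0.60, edgeR adjusted p = 0.9999), and it was 0.55 with ISC cells left out and -0.69 without APC-KO replicate 2. Of the 8 genes tested in ALL, 7 had positive values, from 0.30 for Rnf43 to 1.10 for Lef1, and Znrf3 had -0.24. Their median was 0.53, against 0.0063 over all genes tested. The direction rested on APC-KO replicate 2: without it, 3 of the 7 genes tested had positive values and their median was -0.26.

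In ISC the edgeR fold change of Axin2 was 0.34 (SE 0.24, adjusted p = 0.617). Rnf43 (-0.02) and Sp5 (-0.06) lay near 0, and Tcf7 (-0.45, SE 0.41) and Znrf3 (-0.49, SE 0.36) below it. APC-KO replicate 1 entered this fit with 13 cells, and without APC-KO replicate 2 the Axin2 value was -2.28 (adjusted p = 0.177). Tcf7 ranged from -7.21 to -0.21 and Znrf3 from -7.59 to -0.47 over the fits without 1 library, the lowest values being those in which APC-KO replicate 1, with 0 UMIs of either gene, stood alone for APC-KO.

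GOBLET-PRE cells, the type with most cells in WT, had Axin2 at 5.56, 4.01, 10.1 and 14.4 CPM from 37, 28, 18 and 65 UMIs. Both APC-KO libraries were above both of WT. The fold change was 1.51 (SE 0.31, edgeR adjusted p = 0.483), so it did not pass over all genes. It did pass without a filter on low counts (1.48, adjusted p = 0.0002738), and after thinning to 2000 UMIs per cell it was 0.60 (adjusted p = 0.783). In the same cells the 6 summed Paneth markers were at 7272, 6567, 7676 and 15205 CPM, also higher in both APC-KO libraries. The groups overlapped in the summed stem cell markers (293, 247, 199 and 364 CPM) and proliferation markers (56.8, 52.3, 37.0 and 59.4). Free RNA held Axin2 in the amounts given above. The part of these markers and of free RNA in the Axin2 values was not tested. Rnf43 in GOBLET-PRE was at 9.47, 12.3, 18.5 and 13.7 CPM, again without overlap, with a fold change of 0.63 (SE 0.26, adjusted p = 0.618) that was -0.16 after thinning.

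EC cells, the serotonin-producing endocrine cells by their markers, had Axin2 at 44.7, 28.9, 36.6 and 59.2 CPM. The groups overlapped, and the fold change was 0.54 (SE 0.32, edgeR adjusted p = 0.677). Sp5 in EC was at 2.40, 6.41, 0 and 22.8 CPM from 3, 6, 0 and 20 UMIs, so the high value was that of APC-KO replicate 2 alone. Sp5 was below the count filter in EC, and no test of it is given. In EC of APC-KO replicate 2 some markers of other cells were also highest, and others were not. The 6 summed stem cell markers were at 259, 306, 121 and 544 CPM, Lgr5 among them at 3.19, 2.14, 3.66 and 23.9. The 6 goblet markers were at 6407, 4894, 3704 and 12091. The summed secretory progenitor markers (138, 146, 132 and 99.1 CPM) and enterocyte markers (538, 638, 505 and 337) were lowest in that library. The part of these markers in the Sp5 values was not tested.

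In PANETH-LINEAGE, Nkd1 was at 15.8, 19.1, 6.94 and 12.0 CPM from 33, 48, 2 and 55 UMIs. Both APC-KO libraries were below both of WT. The edgeR fold change was -1.35 (SE 0.28, adjusted p = 0.06054). It passed without APC-KO replicate 1 (-1.37, adjusted p = 0.0162) and without a filter (-1.36, adjusted p = 0.002801). The TMM scaling of edgeR put fold changes in PANETH-LINEAGE 0.517 lower on the log2 scale than CPM does, while in GOBLET-PRE, where CPM less TMM was -0.12, it put them higher. The sum also mixed its 2 types unequally: PANETH cells numbered 106, 200, 16 and 274, and PANETH-PRE cells 122, 98, 11 and 602. Within PANETH alone the Nkd1 CPM ratio of the pooled libraries was 0.972 (95% interval 0.644 to 1.45), and within PANETH-PRE it was 0.704 (0.297 to 1.79).

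Axin2 in PANETH-LINEAGE had the opposite sign, at 14.3, 17.6, 20.8 and 44.2 CPM, with both APC-KO libraries above WT and a fold change of 0.61 (SE 0.26, edgeR adjusted p = 0.299). Sp5 (-0.73, SE 0.59), Znrf3 (-0.44, SE 0.33) and Rnf43 (-0.17, SE 0.27) had values below 0 that did not pass, smaller in size than their scaling shift for the last 2. Sp5 was between -5.92, without APC-KO replicate 2, and -0.15, without WT replicate 2. Some markers of other cells were also higher in both APC-KO libraries, and others were not. In PANETH cells the 6 summed goblet markers were at 7323, 6124, 14438 and 30870 CPM and the 3 proliferation markers at 42.0, 29.0, 155 and 118, higher in both APC-KO libraries. In PANETH-PRE cells the 6 stem cell markers were at 581, 551, 373 and 1193 CPM, highest in APC-KO replicate 2 and lowest in APC-KO replicate 1. In PANETH cells the same markers were at 480, 602, 486 and 698 CPM, where the groups overlapped. The part of these markers in the Axin2 values was not tested.

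TUFT cells could not be fitted, with 8 cells in APC-KO replicate 1. Their Axin2 level was 33.0, 19.4, 18.9 and 99.7 CPM from 29, 11, 1 and 86 UMIs. The value of APC-KO replicate 2 stood above the other libraries. Thinned to 2000 UMIs, the share of TUFT cells with an Axin2 UMI was 4.69%, 5.04%, 0% and 16.4%. Free RNA of APC-KO replicate 2 held Axin2 at 74.0 CPM, the highest of the 4. In TUFT cells of the same library the summed goblet markers (3965, 3195, 1912 and 22264 CPM over the libraries) and stem cell markers (851, 710, 454 and 1082) were highest too. Within the stem cell list this held for Lgr5, Olfm4 (201, 122, 18.9 and 438 CPM) and Slc12a2. It did not hold for Ascl2 (64.9, 79.5, 113.6 and 56.8 CPM) and Smoc2 (254.9, 208.5, 208.2 and 239.9), the members highest in TUFT among the types. Not all lists were highest in that library: the summed enterocyte markers were at 130, 269, 284 and 234 CPM. The part of free RNA and of all these markers in the TUFT value was not tested.

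**Figure D3:**
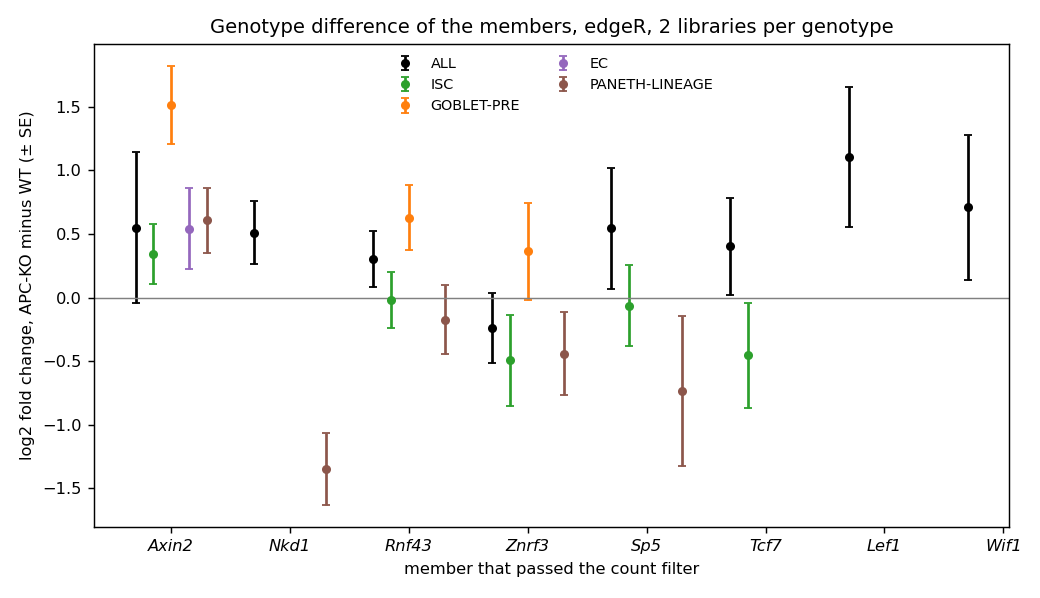
Fold change between genotypes (y axis, log2, APC-KO minus WT, from edgeR) for the 8 genes that passed the count filter in at least 1 population (x axis). Points are coloured by population and bars are standard errors from 2 libraries per genotype. Axin2 in GOBLET-PRE lies highest, at 1.51, and Nkd1 in PANETH-LINEAGE lowest, at -1.35. No point passed the adjusted threshold.

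Whether the genotype difference itself differed between populations was tested by the interaction of type and genotype, with the library as a block over 8 sums. Against GOBLET-PRE, 1 of the 6 genes tested passed for ISC, where edgeR called 0.328% of all genes. This was Axin2, whose genotype difference was lower in ISC than in GOBLET-PRE by a log2 value of -1.25 (SE 0.32, adjusted p = 0.03132). The call held without APC-KO replicate 2 (-3.44, adjusted p = 0.02597) and was lost without each of the other libraries, among them APC-KO replicate 1 (-1.08, adjusted p = 0.05683), and after thinning (-0.18, adjusted p = 1). Over all alternatives run, its adjusted p ranged from 0.01138 to 1. For EC against GOBLET-PRE the Axin2 value was -0.97 (adjusted p = 0.715), and none of the 5 genes tested passed (1 at an unadjusted p under 0.05, 0 calls by DESeq2), where 0.126% of all genes did. For PANETH-LINEAGE against GOBLET-PRE it was -1.02 (adjusted p = 0.116), and none of 6 passed (2 at an unadjusted p under 0.05, 0 calls by DESeq2), where 2.86% of all genes did.

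The rest of the pathway was read from a list of 98 further genes, of which 96 were in the files. In ISC, 1 of 47 tested was higher in APC-KO and 1 lower by edgeR. Tle4, a co-repressor that TCF factors recruit, was at 49.3, 46.8, 26.4 and 88.4 CPM, with a fold change of 0.86 (adjusted p = 0.003088). The direction rested on APC-KO replicate 2, and without it the value was -0.92. Myc, a growth regulator and Wnt target, was at 56.3, 66.0, 0 and 29.4 CPM and fell by a fold change of -1.02 (adjusted p = 0.002138), with both APC-KO libraries below WT. Both calls were lost with the replicate number as a block and without any 1 library other than APC-KO replicate 1. The median of the 47 genes was -0.02, against -0.01 over all genes tested.

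In PANETH-LINEAGE, 1 of 44 listed genes passed. Bambi, a pseudoreceptor of the TGF-beta family and a Wnt target, was at 48.3, 77.8, 13.9 and 3.94 CPM, and fell by a fold change of -4.48 (edgeR adjusted p = 0.00326), with both APC-KO libraries below both of WT. The size rested on APC-KO replicate 2, without which the fold change was -2.42 (adjusted p = 0.006486). The call was lost without either WT library (-4.69 and -4.02), and the unequal mix of PANETH and PANETH-PRE cells applies to it as to Nkd1. The counts were 0 of 63 in ALL (1 at an unadjusted p under 0.05), 0 of 46 in GOBLET-PRE (8) and 0 of 43 in EC (6), all by edgeR. The medians were -0.03, -0.02 and 0.08, against values between -0.0023 and 0.0063 over all genes.

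In the interaction of PANETH-LINEAGE with GOBLET-PRE, 5 of 49 listed genes passed in edgeR. The genotype difference was lower in PANETH-LINEAGE for Wnt3, the Wnt ligand of Paneth cells (-2.08), for the receptors Ephb3 (-1.51) and Lgr4 (-1.08), and for the transcription factor Sox9 (-0.75). It was higher for Id2 (1.23), an inhibitor of bHLH factors. No values under the alternatives are given for these 5 genes. Calls over all genes in this fit fell from 294 to 31 with the DESeq2 Wald test and to 76 after thinning. The scaling shifts given above are those of the fits of PANETH-LINEAGE and GOBLET-PRE alone. Carried over, they would together lower these values by an amount close to the size of the Sox9 value. The scaling shift of the interaction fit itself was not computed. In CPM, Sox9 was at 190, 174, 243 and 196 in PANETH-LINEAGE and at 80.4, 85.1, 121 and 85.9 in GOBLET-PRE, higher in APC-KO in both. Lgr4 was at 80.3, 83.4, 65.9 and 90.7 CPM in PANETH-LINEAGE, where the groups overlapped, and at 77.1, 70.6, 86.4 and 94.7 in GOBLET-PRE. Wnt3 was at 90.8, 82.2, 62.5 and 86.1 CPM in PANETH-LINEAGE and at 3.16, 3.01, 7.86 and 6.85 in GOBLET-PRE, where both APC-KO libraries were above both of WT. Ephb3 was at 52.58, 59.03, 31.23 and 84.99 CPM in PANETH-LINEAGE, where the groups overlapped. In GOBLET-PRE it was at 5.109, 4.87, 8.419 and 11.04 CPM. Id2 was at 8.127, 8.775, 6.94 and 30.23 CPM in PANETH-LINEAGE, where only APC-KO replicate 2 was above WT. In GOBLET-PRE its groups overlapped, at 54.85, 95.11, 48.27 and 59.19 CPM. The other 2 interactions gave 0 of 51 for ISC (6 at an unadjusted p under 0.05) and 0 of 49 for EC (5). Apc, Ctnnb1 (beta-catenin) and Tcf7l2, the main TCF factor of the intestine, were tested in 5 populations without a call, over ranges of -0.03 to 0.43, -0.41 to 0.15 and 0.05 to 0.42. Lgr5 (0.35 to 1.02) and Ascl2 (-0.69 to 0.13), both stem cell genes, were tested in 3, and Tcf7l1 (-1.38 and -0.84) in 2, also without a call.

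The pattern over sums was compared with that of 6037 or 6038 genes by Pearson's r of log2(CPM + 10), over 39 sums of a library and a type with at least 20 cells. This is a description, since these sums share libraries, depth and cell types. The genes most like Axin2 were Nap1l1 (r = 0.872), Dis3 (0.869) and Set (0.862). For Rnf43 they were Cdk6 (0.748), Myb (0.674) and Jaml (0.651), and for Znrf3 Sorbs2 (0.770), Morc2a (0.758) and Nap1l1 (0.754).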

How the data were processed

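The deposited matrices hold UMI counts per gene and barcode, unfiltered, and the submitters' processing notes name Cell Ranger 3.0.2, STAR and mm10. The cell tables deposited by the authors give counts of UMIs and genes per cell, the mitochondrial share in percent, and other values, a library and a cell type name. How cells were filtered, checked for doublets and named was not given in the sources used here, and no doublet caller was run. Kept cells held 24677647, 21003179, 3009636 and 27285079 UMIs per library.

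UMIs were summed per library and type and compared with edgeR 4.0.16 in R 4.3.3 (TMM, filterByExpr, quasi-likelihood test). Alternatives were DESeq2 1.42.0, no filter beyond 1 UMI, a block on the replicate number, leaving out libraries in turn and thinning cells to 2000 UMIs. Poisson and binomial intervals are exact at 95% and cover counting error only. The limit stated for a count of 0 was set at 3 counts, which is lower than the upper end of the exact interval. The fits were tested on simulated data. Types next to each other in an order were called separate where neither the WT libraries nor the intervals of their pooled UMIs overlapped. Positions are from GENCODE vM21 (GRCm38). The 10 genes and all lists were chosen with earlier results of these data known. Named were the 10 genes, listed pathway genes past the threshold of a fit, 7 fixed pathway genes, and for genes with at least 500 UMIs the 3 most alike.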

Additional observations from a re-analysis of the deposited data

Results flagged for a closer look

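Axin2 passed the threshold for a difference of its genotype effect between ISC and GOBLET-PRE in the edgeR fit of all libraries. The log2 difference of APC-KO minus WT was lower in ISC than in GOBLET-PRE by a value of -1.25 (SE 0.32, edgeR interaction over 8 sums, adjusted p = 0.03132). In ISC the libraries were at 126.6, 121.3, 26.4 and 173.8 CPM and in GOBLET-PRE at 5.56, 4.01, 10.1 and 14.4 CPM. The ISC value of APC-KO replicate 1 rested on 2 UMIs. Thinned to 2000 UMIs per cell, the value was -0.18, and with the DESeq2 Wald test it was -1.71 without a call. Without a filter on low counts Axin2 had no call either. Over the fits without 1 library the interaction value ranged from -3.44 to -1.08. Free RNA held Axin2 above the GOBLET-PRE level of the same libraries, and its part in the difference was not tested.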

How the results depend on the processing

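With 2 libraries per genotype, and 13 ISC cells in APC-KO replicate 1, a call rested on few sums, and leaving out a library left its genotype with 1, which was assumed to vary like the other. Of 309 values of single genes under an alternative, 266 kept their direction and side of the threshold, 16 lost a call, 4 gained one and 23 changed sign. These values leave out the listed pathway genes called in the interaction of PANETH-LINEAGE with GOBLET-PRE. The type with the highest WT mean stayed ISC for 4 of 6 genes under each alternative. Where no cause is named, the cause was not tested.

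Calls over all genes numbered 0 in ALL, 354 in ISC, 1 in GOBLET-PRE, 0 in EC and 57 in PANETH-LINEAGE. With the DESeq2 Wald test they were 23 in ALL, 16 in ISC, 38 in GOBLET-PRE and 13 in EC, with no adjusted p for 9302 of 9792 genes in ISC, 6907 of 8690 in EC and 8002 of 8599 in PANETH-LINEAGE. Without a filter they were 21 in ALL, 280 in GOBLET-PRE, 174 in EC and 477 in PANETH-LINEAGE. Thinned, they were 102 in ISC, 6 in GOBLET-PRE and 7 in EC. Over the fits without 1 library they ranged from 0 to 483 in ALL, 29 to 786 in ISC, 7 to 64 in GOBLET-PRE, 0 to 401 in EC and 0 to 461 in PANETH-LINEAGE. The interaction against GOBLET-PRE gave 36 calls for ISC, 63 with DESeq2 size factors, 3 with the DESeq2 Wald test, 0 thinned and 3 to 86 without 1 library. It gave 13 for EC, 0 with the Wald test, 26 without a filter and 13 to 84 without 1 library. It gave 294 for PANETH-LINEAGE, 31 with the Wald test, 76 thinned and 61 to 377 without 1 library.

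Of the 10 genes, 1 passed without a filter in GOBLET-PRE (Axin2) and 1 in PANETH-LINEAGE (Nkd1). Without 1 library, 0 to 1 passed in PANETH-LINEAGE (Nkd1) and in the ISC interaction (Axin2). In EC the 0 to 1 is Sp5, which met the count filter only once the library with 0 UMIs was left out, and is not read as a call. The call of Axin2 in the ISC interaction was absent (0) with the Wald test, without a filter and after thinning.

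The labels do not tie the replicate numbers to animals. Libraries of the same number were compared over genes, by the deviation of log2 CPM from the mean of the genotype. The deviations of WT replicate 1 and APC-KO replicate 1 correlated at r = -0.25 in ALL and between -0.052 and 0.022 in the other populations. With the replicate block, calls numbered 4 in ALL, 76 in ISC, 110 in GOBLET-PRE and 125 in PANETH-LINEAGE, and 1 of the 10 genes passed in GOBLET-PRE (Axin2, 1.52, edgeR adjusted p = 0.02125); in ISC, Rnf43 was 0.10 under the block. A crossed block, chosen after seeing the data, gave 1 call in ALL, 68 in ISC, 1 in GOBLET-PRE, 132 in EC and 49 in PANETH-LINEAGE, and 0 of the 10 genes in each.

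Changed signs after thinning were Znrf3 in ALL (0.021), Sp5 in ISC (0.26), Rnf43 in GOBLET-PRE (-0.16) and PANETH-LINEAGE (0.015), Rnf43 in the interactions of ISC (0.13) and PANETH-LINEAGE (0.17), and Axin2 in that of EC (0.063). With the DESeq2 Wald test in ISC, Rnf43 was 0.075 and Axin2 -0.13. Without 1 library, ALL gave -0.57 to 0.93 for Sp5, -0.26 to 0.64 for Tcf7 and -0.69 to 1.14 for Axin2. ISC gave -0.45 to 0.20 for Sp5, -0.55 to 0.15 for Ascl2, -1.77 to 0.49 for Lgr5, -0.071 to 0.22 for Rnf43, -2.28 to 0.55 for Axin2, -0.92 to 0.93 for Tle4 and -0.17 to 0.45 for Tcf7l2. PANETH-LINEAGE gave -0.58 to 0.011 for Rnf43.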
